A study of Bos taurus and Mus musculus with 16 samples.

Results

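The genes described here are 40 components of signalling by the transforming growth factor beta (TGF-beta) superfamily, which covers the TGF-beta, activin, Nodal and bone morphogenetic protein (BMP) branches. They were found by gene symbol, ignoring case, in a table of mouse morulae and a table of bovine blastocysts. Of the 40, 35 had a row among the 16655 genes of the mouse table, and 34 had one among the 14852 genes of the bovine table. Nodal, Gdf9, Inhba, Lefty2 and Fst in mouse, and NODAL, GDF9, BMP8B, INHBA, LEFTY1 and FST in cattle, were not analysed here. The members were 2 ligands of the Nodal branch, 2 oocyte ligands, 4 BMP ligands, 4 activin and TGF-beta ligands, 2 proprotein convertases, 4 type I receptors, 4 type II receptors, 3 co-receptors, 5 SMAD transducers, 3 secreted inhibitors and 7 intracellular inhibitors.

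In this pathway a dimeric ligand, released from its precursor by a convertase, joins type II receptors, which are constitutively active kinases, to type I receptors, and the type II kinases phosphorylate the type I receptors. Activated type I receptors phosphorylate receptor-regulated SMAD proteins, which enter the nucleus with the common partner SMAD4. SMAD2 and SMAD3 carry signals of activins, Nodal and TGF-beta, and SMAD1 and SMAD5 those of BMPs. In the early mouse embryo Nodal, with its co-receptor Cripto (Tdgf1), is known for its part in the epiblast and in patterning after implantation, and inhibitors such as Lefty and SMAD7 are known feedback targets of the pathway.

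The RNA came from 16 samples of preimplantation embryos, all of them injected as zygotes with mRNA of BE3, a base editor made of a Cas9 nickase fused to a cytidine deaminase. Edited embryos also received a mix of single guide RNAs against Tead4 (mouse) or TEAD4 (cattle), and control embryos received BE3 mRNA with no guide RNA. There were 2 edited and 2 control samples of mouse morulae at day 3.25, and 6 edited and 6 control samples of bovine blastocysts at day 7.0. The sources used here state neither the strain nor the number of embryos pooled, if any, nor whether replicates were injected separately. P-values therefore reflect the spread among these samples alone, in large part pooled over genes, and that spread may be technical. Effects of the guide RNAs other than those on TEAD4 cannot be told apart from loss of TEAD4.

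The values, called normalized reads below, are reads per gene after the authors' division by each sample's DESeq2 size factor. Reads assigned to genes numbered 4386305 to 6109425 in edited and 3642907 to 4187826 in control morulae, and 817329 to 2259064 in edited and 934078 to 2501592 in control blastocysts. The most abundant feature took 4.73% to 7.20% of reads in edited and 2.42% to 3.30% in control morulae (LOC101056014), and 9.27% to 19.7% in edited and 12.4% to 36.6% in control blastocysts (RN18S1). Tead4 stood at 57.2 and 76.5 normalized reads in edited and at 458 and 519 in control morulae, without overlap (log2 fold change -2.86 ± 0.25, limma adjusted p = 5.37e-09). Bovine TEAD4 averaged 41.2 ± 15.6 in edited and 96.7 ± 23.4 in control blastocysts (SD, n = 6 each), with ranges of 22.6 to 65.6 and of 61.2 to 125 that overlapped (log2 fold change -1.25 ± 0.25, limma adjusted p = 0.235). Summed trophectoderm markers (11 of 12 listed had a row) lay at 2158 to 2366 normalized reads in edited and 8221 to 9395 in control morulae. That list and its sum include Tead4, the edited gene. Marker counts here are at a limma adjusted p under 0.05, where 6.92% of all genes tested were higher and 8.38% lower. Of 10 tested trophectoderm members 7 were lower, Tead4 among them, and 8 had a negative log2 fold change. Inner cell mass and epiblast markers (11 of 11) summed to 6259 to 6671 in edited and 6248 to 6308 in control morulae. Of these 11, 4 were higher, and 8 had a positive log2 fold change. Primitive endoderm markers (8 of 10) summed to 1641 to 1773 in edited and 4986 to 5403 in control morulae. Of 7 tested members 1 was higher (Gata4) and 2 were lower (Lrp2 and Dab2), while 3 had a positive and 4 a negative log2 fold change. Dab2 alone averaged 103 in edited and 1370 in control morulae, so the sum does not stand for the whole list. Oocyte and polar body markers (9 of 12) summed to 206 to 270.04 in edited and 270.4 to 295 in control morulae. Of 3 tested members 1 was lower (Ooep, mean 43.9 in edited and 161 in control morulae), and 2 had a positive log2 fold change. The lower sum therefore does not stand for the whole list. None of 6 spermatozoan markers had a row. Cumulus and granulosa cell markers (3 of 12) summed to 82.2 to 114 in edited and 41.7 to 87.2 in control morulae, and blood cell markers (3 of 8) to 90.7 to 165 in edited and 69.6 to 82.7 in control morulae, with no tested member of either list past the threshold. In blastocysts the sums of each marker list overlapped between groups. The part of such differences in cell makeup in the results below was not tested, and in these bulk samples fewer cells of a type and less RNA per cell cannot be told apart.

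In mouse morulae, 5 of the 23 members whose mean reached 10 normalized reads differed between edited and control samples at a Benjamini-Hochberg adjusted p under 0.05 over all genes (limma). Tdgf1, Eng and Furin were higher in edited morulae, and Acvr2b and Smad7 were lower. The share of 21.7% of tested members compares with 15.3% of the 11386 genes tested, of which 6.92% were higher and 8.38% lower. By log2 fold change 9 members were positive and 14 negative, with a median of -0.18, against -0.00 over all genes. An unadjusted p under 0.05 was found for 7 of the 23 members and for 28.6% of all genes. The groups did not overlap for 13 of the 23 members, a condition that 57.8% of all tested genes met, so the share of such members was close to that of all genes. When every sample was scaled to the same total, the median of all genes shifted to 0.12, all genes split into 1111 higher and 682 lower in place of 788 and 954, and the members into 3 higher and 1 lower.

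**Figure D1:**
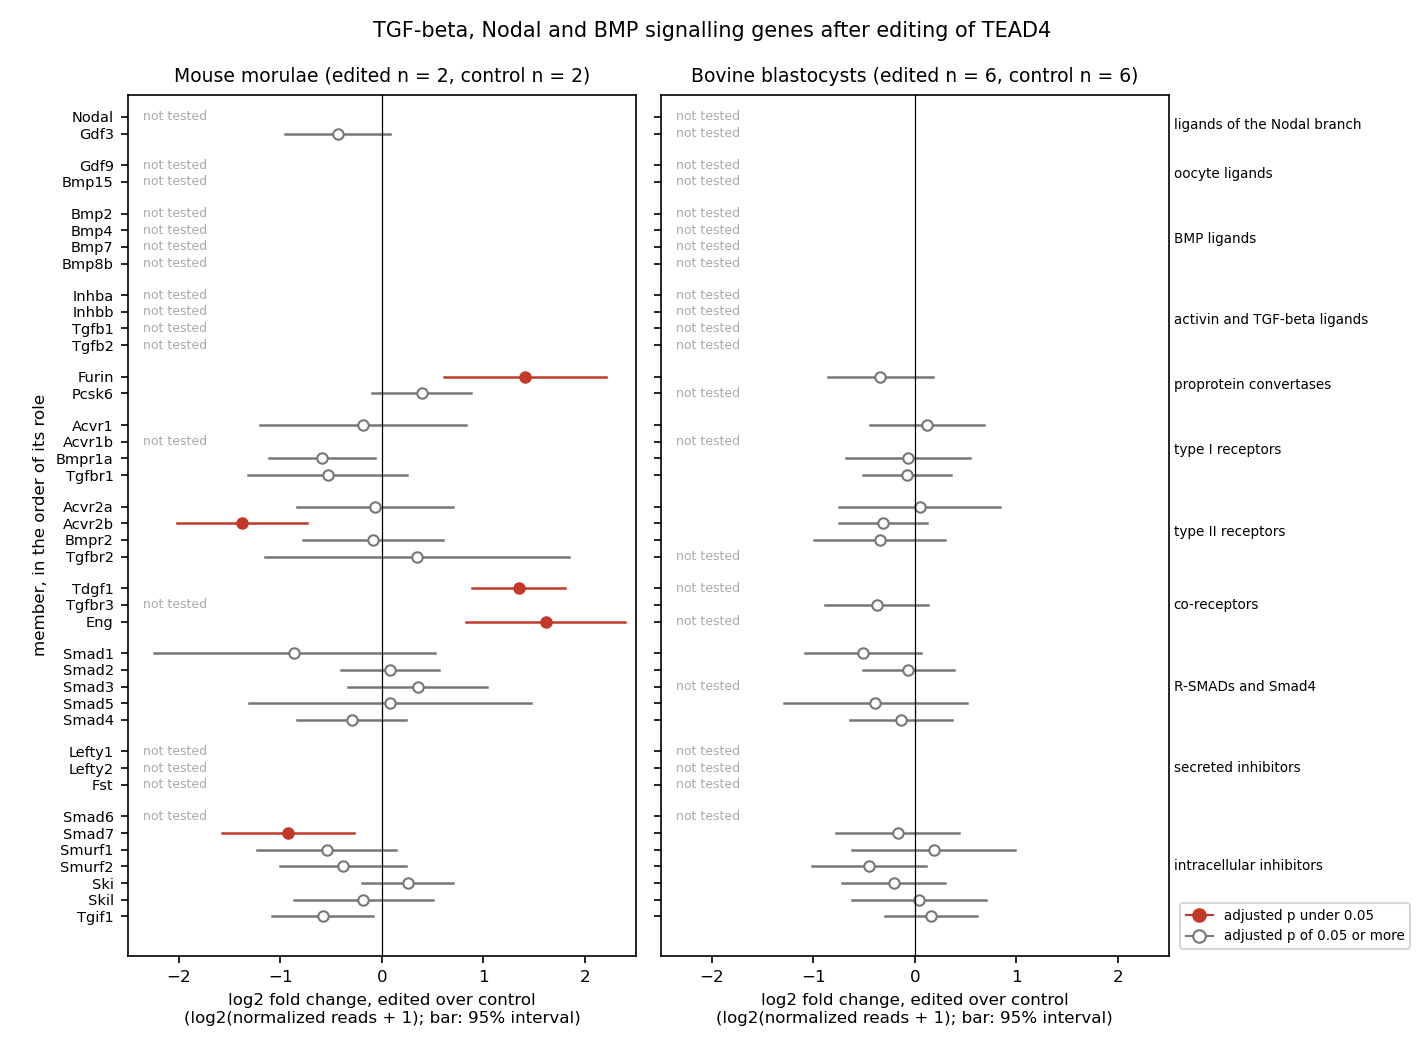
Log2 fold change of each member, edited over control, on the scale of log2(normalized reads + 1), in mouse morulae (left, 2 edited and 2 control samples) and bovine blastocysts (right, 6 edited and 6 control samples), with 95% intervals from limma; members without a row or below a mean of 10 are marked as not tested. The 5 filled points in mouse are Furin, Tdgf1 and Eng to the right of 0 and Acvr2b and Smad7 to the left, and in cattle no point is filled.

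Reads of ligand genes were scarce in the morula, with 1 exception. Gdf3, a Nodal-like ligand of pluripotent cells, had 137 and 198 normalized reads in edited and 253 and 199 in control morulae. Edited sample 2 and control sample 2 were nearly level, and only the first samples of each group lay apart (log2 fold change -0.44 ± 0.25, limma adjusted p = 0.256). Without edited sample 2 the value was -0.70 and passed (limma adjusted p = 0.0410), against adjusted p up to 0.752 in the other settings tried. Per kilobase of exon Gdf3 had the highest level of all members in control morulae, at 93.1 normalized reads, against 69.3 in edited ones.

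Every other mouse ligand with a row was under the filter on low values and was not tested. Bmp15, an oocyte ligand of the ovary, had 18.1 and 7.09 normalized reads in edited morulae, from 29 reads, and 3.35 and 2.53 in control ones, from 5 reads. Its groups did not overlap, but in the fit without a filter it did not pass (limma adjusted p = 0.198). Of the BMP ligands, Bmp2 had 5.72 and 13.5 in edited and 5.59 and 1.26 in control morulae, and Bmp4 had 6.67 and 14.2 in edited and 4.47 and 6.32 in control morulae. For both genes the edited samples were above the control samples, but the lower edited and the higher control sample nearly met. Bmp7 and Bmp8b overlapped between groups, as did Tgfb1 and Tgfb2, and Inhbb, the activin B subunit, had 10.5 and 5.67 in edited and 5.59 and 3.79 in control morulae. Over all 12 mouse members under the filter, group means lay at 4.03 to 12.6 in edited and 0.559 to 11.5 in control morulae, with the edited mean higher in 8 and lower in 4. In these libraries 3 reads correspond to 2.13 to 3.79 normalized reads, so differences among these genes were hardly detectable at this depth.

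**Figure D2:**
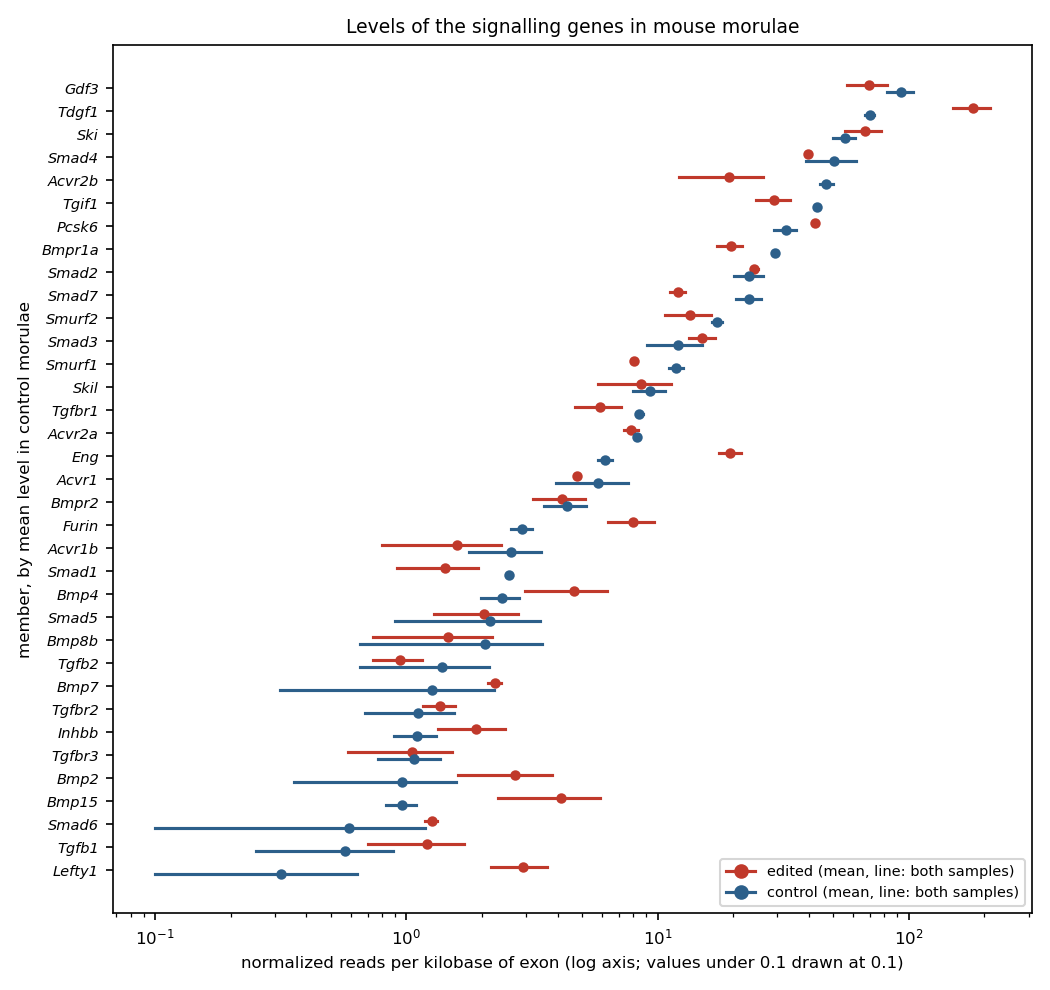
Level of the 35 mouse members with a row, in normalized reads per kilobase of exon on a log axis, ordered by their mean in control morulae; points are group means, and lines join both samples of a group. Gdf3 (69.3 in edited, 93.1 in control) and Tdgf1 (180 in edited, 69.8 in control) top the control order, and most ligands fall near the lower end together with Smad6, Tgfbr3 and Lefty1.

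Of the convertases that cleave ligand precursors, Furin passed. Furin (chromosome 7, 80388585 to 80405436, minus strand, GRCm38), a protease of the secretory pathway, had 88.7 and 58.1 normalized reads in edited and 29.1 and 24.0 in control morulae. Both edited samples were above both control samples, and Furin rose by 1.41 ± 0.39 on the log2 scale (SE, n = 2 per group, limma adjusted p = 0.0141). That call was lost without edited sample 1 (limma adjusted p = 0.151), control sample 1 (0.0590) or control sample 2 (0.113), within a range of 0.00329 to 0.151 over 13 settings. Exons of Furin overlap those of Gm44851 on the opposite strand. Pcsk6, the convertase also known as PACE4, had 215 and 224 in edited and 151 and 185 in control morulae, which did not overlap but did not pass (0.39 ± 0.24, limma adjusted p = 0.290). Whether Furin differed from Pcsk6 was not tested.

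Among the receptors, Acvr2b (chromosome 9, 119402118 to 119434995, plus strand), a type II receptor for activins and Nodal, had 47.7 and 103 normalized reads in edited and 173 and 196 in control morulae. Both edited samples were below both control samples, although they differed from each other by more than the control samples did. Acvr2b fell by 1.38 ± 0.31 on the log2 scale (limma adjusted p = 0.00341). The value ranged from -1.93 without edited sample 2 to -0.83 without edited sample 1, and of 14 settings only the one without control sample 2 lost the call (limma adjusted p = 0.0733, lowest 4.03e-08). Its close relative Acvr2a had 42.0 and 47.5 in edited and 45.8 and 48.1 in control morulae, which overlapped (-0.07 ± 0.37). Bmpr2, the main type II receptor for BMPs, and Tgfbr2, the type II receptor for TGF-beta, overlapped as well, at -0.09 ± 0.33 and 0.34 ± 0.73. Whether Acvr2b differed from the other type II receptors was not tested.

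No type I receptor passed. Bmpr1a, a type I receptor for BMPs, had 110 and 138 normalized reads in edited and 184 and 187 in control morulae. These groups did not overlap, and the difference was past an unadjusted p of 0.05 but not the adjusted one (-0.59 ± 0.25, limma adjusted p = 0.121). Without edited sample 2 it passed (-0.76, limma adjusted p = 0.0382, against up to 0.395 in the other settings). Tgfbr1 had 30.5 and 46.8 in edited and 53.6 and 56.9 in control morulae (-0.54 ± 0.38), and Acvr1 overlapped between groups (-0.19 ± 0.49). Acvr1b, the activin and Nodal receptor ALK4, was under the filter, with 10.5 and 3.54 in edited and 7.82 and 15.2 in control morulae.

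The only members called in all 14 settings were co-receptors, although Acvr2b had a lower limma adjusted p than Eng in the main fit. Tdgf1 (chromosome 9, 110939603 to 110946158, minus strand), the Nodal co-receptor Cripto, had 553 and 393 normalized reads in edited and 190 and 176 in control morulae. Even the lower edited sample was far above both control samples, and Tdgf1 rose by 1.35 ± 0.22 on the log2 scale (limma adjusted p = 0.000161). It was called in 14 of 14 settings, with values of 1.10 to 1.59. In edited morulae Tdgf1 had the highest level per kilobase of all members, at 180, against 69.8 in control morulae, where Gdf3 was above it. Tdgf1 is also 1 of the 11 inner cell mass and epiblast markers, and the annotation lists 2 pseudogene copies of it, Tdgf1-ps1 and Tdgf1-ps2, between which the counting could split reads.

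Eng (chromosome 2, 32646595 to 32682669, plus strand), which encodes endoglin, a co-receptor for TGF-beta and certain BMPs, had 86.8 and 70.9 normalized reads in edited and 23.5 and 26.6 in control morulae. The groups lay far apart, and Eng rose by 1.61 ± 0.38 on the log2 scale (limma adjusted p = 0.00462), the largest absolute change of the tested mouse members. It was called in 14 of 14 settings, with adjusted p from 0.00297 to 0.0492 (limma, edgeR or DESeq2). Exons of Eng overlap those of Fpgs on the opposite strand, and the sources used here do not say whether the counting used strand. Fpgs had 238 and 163 in edited and 152 and 176 in control morulae, which overlapped. Tgfbr3, which encodes betaglycan, was under the filter, with 3.81 and 9.92 in edited and 8.94 and 5.06 in control morulae.

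**Figure D3:**
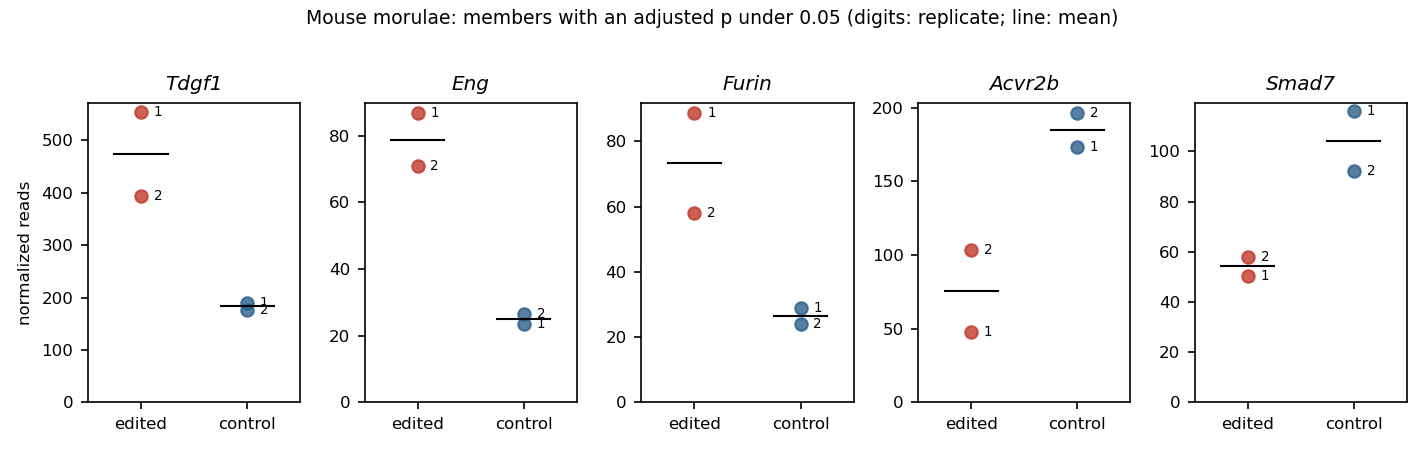
Normalized reads of the 5 called members in each mouse sample, with the replicate number beside each point, edited left of control, and a line at the group mean; each gene has its own axis from 0. Edited samples lie above control samples for Tdgf1, Eng and Furin and below them for Acvr2b and Smad7.

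None of the 5 SMAD transducers passed. Smad2 had 207 and 220 normalized reads in edited and 177 and 230 in control morulae, and Smad3 had 93.4 and 73.7 in edited and 50.3 and 83.5 in control morulae. Both overlapped between groups, at 0.08 ± 0.24 and 0.35 ± 0.33. The common partner Smad4 had 148 and 147 in edited and 144 and 229 in control morulae (-0.30 ± 0.26), where control sample 2 alone was high. The BMP transducers were lower in level, with Smad1 at 5.72 and 12.0 in edited and 15.6 and 16.4 in control morulae, and Smad5 at 9.53 and 20.6 in edited and 6.70 and 25.3 in control morulae. Smad1 did not overlap between groups but rested on few reads (-0.86 ± 0.67, limma adjusted p = 0.428), and Smad5 overlapped (0.08 ± 0.68). The 95% intervals of these SMAD genes ran from -0.41 to 0.57 for Smad2, the narrowest, and from -2.25 to 0.52 for Smad1, so changes of 2-fold were not excluded for Smad1, Smad3 and Smad5.

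Of the inhibitors, Smad7 (chromosome 18, 75367529 to 75395935, plus strand), which blocks type I receptors and recruits ubiquitin ligases to them, had 50.5 and 58.1 normalized reads in edited and 116 and 92.3 in control morulae. Both edited samples were below both control samples, and Smad7 fell by 0.92 ± 0.32 on the log2 scale (limma adjusted p = 0.0479). The call stood close to the threshold and was lost in 8 of 14 settings, among them no filter (limma adjusted p = 0.0708), the same total (0.0866), robust limma (0.0510), edgeR (0.0572), DESeq2 (0.110) and the fits without edited sample 1 (0.115), control sample 1 (0.357) or control sample 2 (0.139). Its fold change lay between -1.09 and -0.76 in all of them. The related inhibitor Smad6 was under the filter, with 3.81 and 4.25 in edited and 0 and 3.79 in control morulae.

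Of the 6 tested intracellular inhibitors, 5 had a negative and 1 a positive log2 fold change, and Smad7 alone passed. Tgif1, a homeodomain repressor that binds SMAD2 and SMAD3, had 138 and 190 normalized reads in edited and 249 and 238 in control morulae, without overlap (-0.58 ± 0.24, limma adjusted p = 0.103). It passed without edited sample 2 (-0.81, limma adjusted p = 0.0132, against up to 0.422 in the other settings), and the annotation lists a pseudogene, Tgif1-ps. The ubiquitin ligase genes Smurf1 and Smurf2 had 52.4 and 49.6, and 65.8 and 101, in edited morulae, against 70.4 and 79.7, and 102 and 111, in control morulae (-0.55 ± 0.33 and -0.38 ± 0.30). The SMAD-binding repressor genes Ski and Skil overlapped between groups, at 0.25 ± 0.22 and -0.18 ± 0.33. Lefty1, a secreted inhibitor of Nodal, rested on 13 reads in edited morulae (3.81 and 6.38 normalized reads) and on 1 read in control morulae (1.12 and 0), so no fold is given.

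The deposited comparison of the authors gave the same direction for each of the 5 called members. Of 11165 genes with an adjusted p in the authors' deposited table, 11.8% were under 0.05, and 4 of the 5 were among them. These were Tdgf1 (log2 fold change 1.37, adjusted p = 9.85e-06, authors' deposited table), Eng (1.66 and 0.0117), Acvr2b (-1.28 and 0.0118) and Furin (1.46 and 0.0402). Smad7 had -0.94 with an adjusted p of 0.108 in the authors' deposited table.

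Beyond the members, 141 other genes of the pathway were listed, of which 112 had a mouse row and 84 were tested. In edited morulae 11 of these 84 were higher and 9 lower (limma, adjusted over all genes), with a median log2 fold change of 0.16, against 15.3% of all genes called in either direction. The count depended on single samples, at 8 without control sample 1, 7 without control sample 2, 11 without edited sample 1 and 28 without edited sample 2, and was 12 with DESeq2 and 13 with the length trend removed. Neither of the 2 tested ligands, none of the 3 receptors and none of the 6 secreted antagonists or latent complex genes passed (limma), of which 3 antagonists had an unadjusted p under 0.05. At the same total 1 antagonist was higher, and without edited sample 2, 2 antagonists and 1 ligand were higher. Of 47 tested intracellular transducers and regulators, 7 were higher and 3 lower, and of 26 tested target genes, 4 were higher and 6 lower.

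Among the regulators, Dab2, an endocytic adaptor that binds SMAD2 and SMAD3, had 118 and 87.9 normalized reads in edited and 1345 and 1394 in control morulae (-3.73 ± 0.21, limma adjusted p = 1.54e-12). Dab2 is also on the trophectoderm and primitive endoderm marker lists. Both lists had lower summed levels in edited morulae, in sums that include Dab2 itself. Foxh1, the DNA-binding partner of SMAD2 in Nodal signalling, had 46.7 and 45.4 in edited and 12.3 and 21.5 in control morulae. It rose by 1.44 ± 0.47 on the log2 scale (limma adjusted p = 0.0361), a call that was lost in each fit without 1 sample, at limma adjusted p of 0.0568 without control sample 2 to 0.278 without control sample 1, and with DESeq2 (0.110). Wwp2, a ubiquitin ligase gene related to the Smurf genes, had 500 and 266 in edited and 232 and 142 in control morulae (1.004 ± 0.27, limma adjusted p = 0.0114). This call was lost without edited sample 1 (limma adjusted p = 0.169), without control sample 2 (0.285) and with the length trend removed (0.0526).

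The targets moved in both directions. Id2, a BMP target that inhibits helix-loop-helix factors and also a trophectoderm marker here, had 12.4 and 12.0 normalized reads in edited and 198 and 286 in control morulae (-4.17 ± 0.36, limma adjusted p = 4.31e-09). Its relative Id3, another BMP target, had 1007 and 1362 in edited and 475 and 412 in control morulae, so that both edited samples were above both control samples (1.40 ± 0.19, limma adjusted p = 1.70e-05). Both genes were called in 14 of 14 settings, with opposite signs. Msx2, a homeobox target of BMPs, had 6.67 and 14.9 in edited and 44.7 and 43.0 in control morulae (-2.02 ± 0.53, limma adjusted p = 0.00970), a call lost without control sample 1 (0.124) or control sample 2 (0.105). Ier3 had 7.63 and 8.51 in edited and 24.6 and 58.2 in control morulae (-2.10 ± 0.57, limma adjusted p = 0.0127), a call lost without control sample 2 (-1.50, limma adjusted p = 0.336) and with the length trend removed (0.0588). The value without control sample 1 was -2.71.

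The targets with the largest rises, chosen after their values were seen together with Id3, were 2 genes known as targets of Nodal and activin in embryos. Gsc, the homeobox gene goosecoid, had 117 and 118 normalized reads in edited and 30.2 and 43.0 in control morulae. It rose by 1.68 ± 0.33 on the log2 scale (limma adjusted p = 0.00110) and was called in 14 of 14 settings. Mixl1, a homeobox gene of the primitive streak, had 31.5 and 28.4 in edited and 3.35 and 12.6 in control morulae (2.002 ± 0.64, limma adjusted p = 0.0341). Its call was lost without edited sample 1 (limma adjusted p = 0.120), edited sample 2 (0.0562) or control sample 1 (0.326) and with DESeq2 (0.121). The value was 1.18 without control sample 1 and 2.83 without control sample 2.

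**Figure D4:**
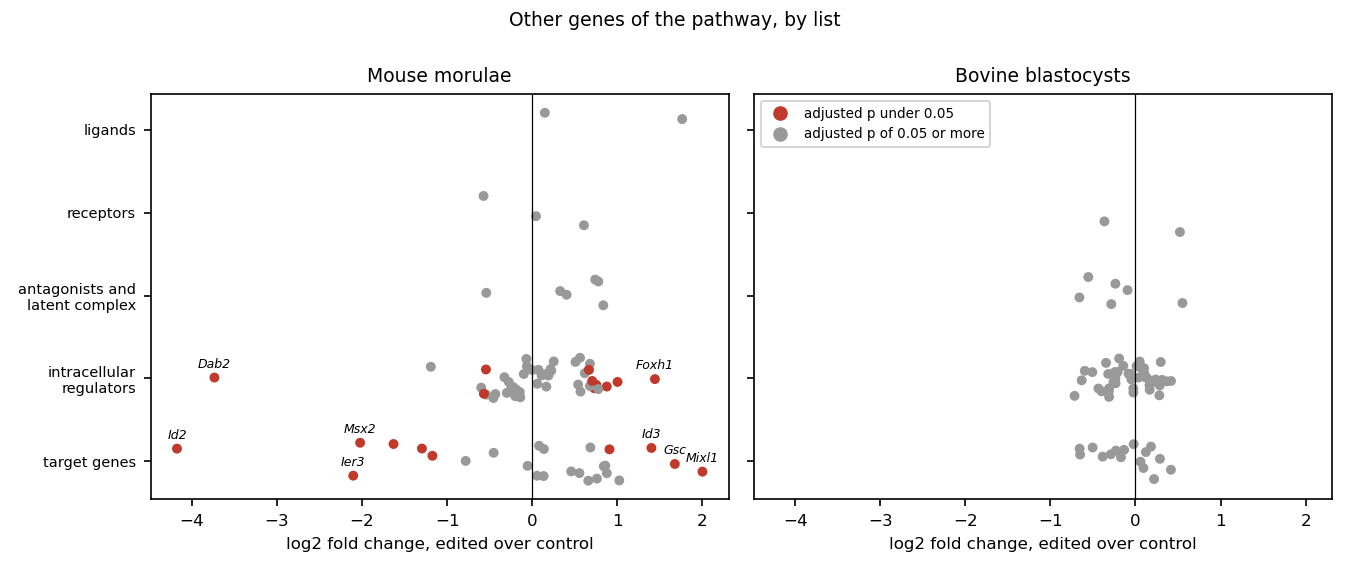
Log2 fold change, edited over control, of each tested pathway gene that is no member, by list, in mouse morulae (left) and bovine blastocysts (right); red points had an adjusted p under 0.05 over all genes, points are spread vertically only to separate them, and no bovine ligand was tested. The called mouse genes lie among the intracellular regulators and the target genes, from Id2 (-4.17) and Dab2 (-3.73) to Mixl1 (2.002), and no bovine point is red.

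In bovine blastocysts none of the 18 tested members passed, and none had an unadjusted p under 0.05 (limma), where 0.0113% of the 8884 genes tested passed and 5.88% had an unadjusted p under 0.05. Without control library 5, 2 members had an unadjusted p under 0.05 (limma), and without edited library 2 or control library 1, 1 member. The groups overlapped for each of the 18, while 0.248% of all tested genes did not overlap, 0.09% with the edited and 0.158% with the control libraries higher. Of 14840 genes with an adjusted p in the authors' deposited table, 0.0202% were under 0.05, and no member was among them, with a lowest adjusted p of 0.965. The unadjusted p in the authors' deposited table was 0.0446 for SMAD1 and 0.0111 for BMP15, which was under the filter here. Of the 18 log2 fold changes 5 were positive and 13 negative, with a median of -0.15, against 0.01 over all genes, and they ran from -0.51 for SMAD1 to 0.19 for SMURF1. The 95% intervals spanned -1.29 (SMAD5) to 0.99 (SMURF1) in all, and a 2-fold fall lay within the interval for SMAD1, SMAD5 and SMURF2. Scaling every sample to the same total moved the median of all bovine genes to 0.13.

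SMAD1, the BMP transducer, had a lowest, median and highest value of 22.1, 33.2 and 48.2 normalized reads in edited and 26.3, 51.3 and 75.4 in control blastocysts. The groups overlapped widely, although the 3 highest libraries were control libraries (-0.51 ± 0.27, 95% interval -1.08 to 0.06, limma adjusted p = 0.792). SMAD2 had 57.5, 69.4 and 117 in edited and 52.6, 78.3 and 103 in control blastocysts. SMAD4 had 31.8, 43.3 and 56.2 in edited and 29.2, 52.2 and 71.0 in control blastocysts, and SMAD5 had 2.95, 10.1 and 17.1 in edited and 4.62, 11.9 and 20.4 in control blastocysts. All 4 tested SMAD transducers had a negative log2 fold change (SMAD2 -0.06, SMAD4 -0.14, SMAD5 -0.39), as did 4313 of the 8884 genes tested. The 95% interval of each of the 4 included 0, and the value of SMAD2 turned to 0.06 at the same total. SMAD3 was under the filter at no more than 6.63 in any library.

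No tested receptor or inhibitor of the blastocyst passed either, and the groups overlapped for each. By log2 fold change BMPR2 had -0.35 ± 0.31, BMPR1A -0.07 ± 0.29, ACVR1 0.12 ± 0.27 and ACVR2A 0.05 ± 0.38. ACVR2B had 36.1, 56.6 and 70.1 normalized reads in edited and 52.6, 63.0 and 98.4 in control blastocysts (-0.31 ± 0.21), and TGFBR1, with 49.9, 81.0 and 117 in edited and 65.6, 85.0 and 110 in control blastocysts, had -0.08 ± 0.21. The betaglycan gene TGFBR3, which was scarce in the morula, had 21.8, 45.0 and 55.3 in edited and 37.9, 51.4 and 76.9 in control blastocysts (-0.38 ± 0.24). SMURF2 had 12.5, 18.3 and 20.4 in edited and 15.4, 24.4 and 42.3 in control blastocysts (-0.45 ± 0.27). SMAD7 (-0.17 ± 0.29), SKI (-0.21 ± 0.24), SKIL (0.04 ± 0.32), SMURF1 (0.19 ± 0.38) and TGIF1 (0.16 ± 0.22) had smaller values, and TGIF1 was the most abundant tested member in cattle by normalized reads, at 83.2, 112 and 181 in edited and 81.8, 109 and 138 in control blastocysts. FURIN had 23.0, 33.6 and 38.1 in edited and 28.0, 38.5 and 69.6 in control blastocysts (-0.34 ± 0.25).

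The 16 bovine members under the filter included TDGF1, GDF3 and LEFTY2 of the Nodal branch. TDGF1 had 22.6 normalized reads in edited library 3 and at most 1.85 in the other 5 edited libraries, and 20.4 in control library 3 and at most 4.62 in the other 5 control libraries. GDF3 was likewise highest in library 3 of each group, at 19.8 in edited and 39.4 in control blastocysts, with medians of 6.31 and 6.97. LEFTY2 reached 14.1 in edited library 3, with a median of 3.43 in edited and 4.21 in control blastocysts, where library 4 was highest at 6.36. NANOG, a pluripotency factor of the epiblast looked at after these values were seen, also peaked in edited library 3 (226, median 21.5) and control library 3 (172, median 22.1). ID2, listed here as a trophectoderm marker, also peaked in edited library 3 (67.9, median 34.9) and control library 3 (77.3, median 26.2). The pluripotency genes POU5F1 and SOX2 did not peak there. POU5F1 had 310 in edited library 3 and 468 in edited library 5, and 334 in control library 3 and 566 in control library 6. SOX2 had 18.4 in edited library 3 and 32.13 in edited library 5, and 32.07 in control library 3 and 34.7 in control library 4. The groups overlapped for each of these genes.

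BMP15 had 0 reads in all 6 edited libraries, where 3 reads would correspond to 1.72 to 5.56 normalized reads, and 1.31, 0, 2.92, 22.0, 19.4 and 0 normalized reads in control libraries 1 to 6. Nearly all of its 75 control reads came from control libraries 4 and 5, and 2 control libraries were at 0 like the edited ones. In the fit without a filter it was past an unadjusted p of 0.05 but not the adjusted one (limma adjusted p = 0.894). In control libraries 4 and 5, ZP2 had 2.31 and 1.71, ZP3 had 3.47 and 7.99 and OOEP had 18.5 and 19.4 normalized reads. These values lay within the range of each gene over the other control libraries. ZP2, ZP3 and OOEP are only part of the oocyte marker list, and ZP2 rests on few reads. The source of the BMP15 reads was not tested. The other members under the filter had group means up to 8.96 in edited and 9.34 in control blastocysts, both those of BMP4. Of the 16, 7 had the higher mean in edited and 9 in control blastocysts.

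**Figure D5:**
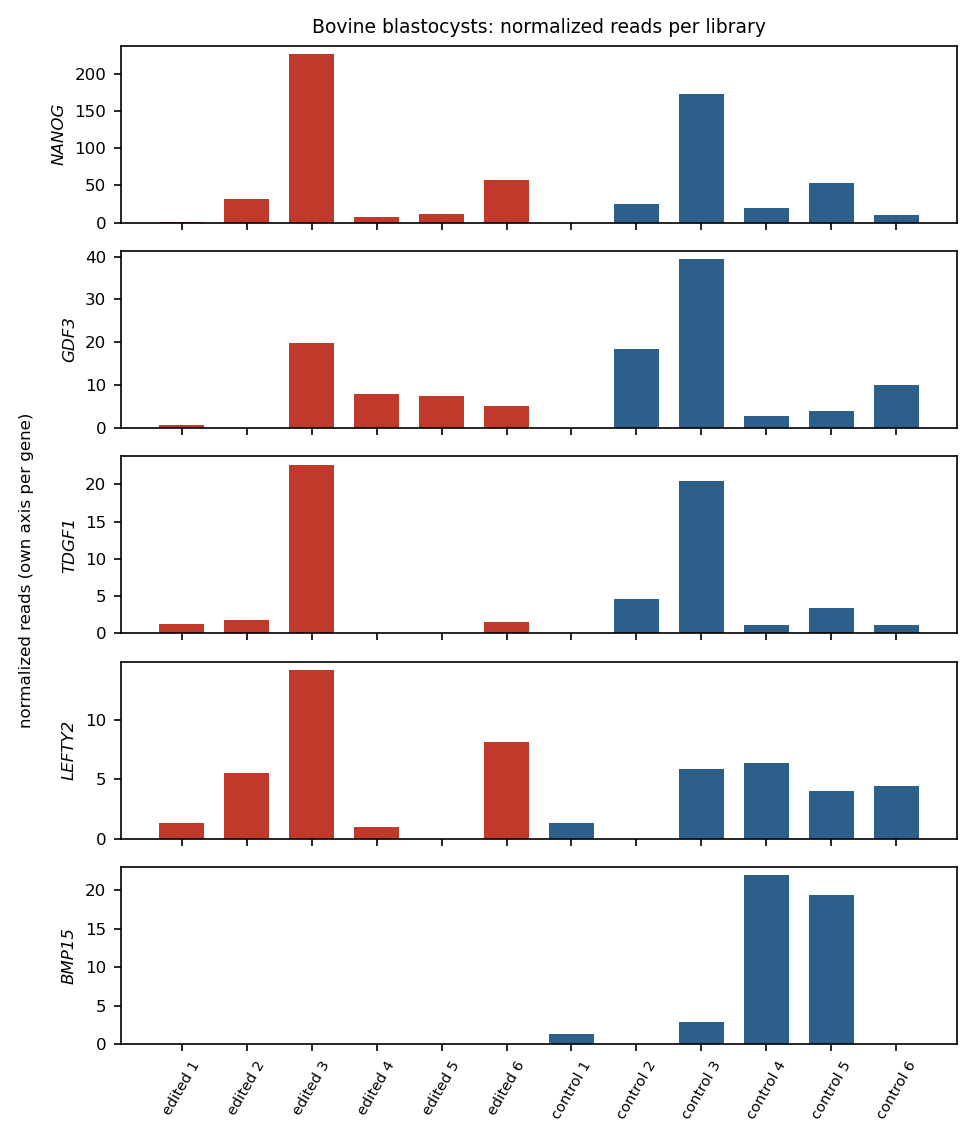
Normalized reads of NANOG, GDF3, TDGF1, LEFTY2 and BMP15 in each bovine library, edited libraries 1 to 6 left of control libraries 1 to 6, each gene on its own axis from 0. NANOG, GDF3 and TDGF1 are highest in library 3 of both groups, and BMP15 is at 0 in all edited libraries and above 10 in control libraries 4 and 5 alone.

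Of the other genes of the pathway, 66 were tested in cattle and none passed (limma), of which 3, all of them intracellular regulators, had an unadjusted p under 0.05. Their median log2 fold change was -0.07, with 28 positive and 38 negative. The groups overlapped in blastocysts for each of the genes named above for mouse that had a bovine row, and Mixl1 was not analysed here in cattle. DAB2 had 722, 764 and 1011 normalized reads in edited and 592, 728 and 1050 in control blastocysts, and ID2 had 13.6, 34.9 and 67.9 in edited and 13.3, 26.2 and 77.3 in control blastocysts. IER3 had 25.3, 57.5 and 102 in edited and 51.3, 62.7 and 221 in control blastocysts (-0.65 ± 0.36, limma adjusted p = 0.792), a negative value as in mouse. GSC had 3.01, 11.2 and 20.4 in edited and 1.54, 15.2 and 45.3 in control blastocysts (-0.38 ± 0.54). WWP2 had 62.2, 77.2 and 104 in edited and 53.9, 60.3 and 106 in control blastocysts (0.24 ± 0.21), and MSX2 had 72.3, 99.4 and 136 in edited and 50.9, 104 and 124 in control blastocysts (0.09 ± 0.23). Reads of ID3 and FOXH1 were few, and ID3 and FOXH1 stayed at or under 3.32 and 11.1 in all libraries.

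For 17 members a fold change was at hand in both species, and 8 of them had the same sign, all negative. Most tested members were negative in each species (14 of 23 in mouse and 13 of 18 in cattle). The share of same signs over all shared symbols was not computed, so the count is not read as a common fall. Stage and species differ together here, so a difference between them cannot be given to either. Furin differed, with a log2 fold change of 1.41 in mouse and -0.34 in cattle, a difference of 1.75 ± 0.46 (SE, adjusted p = 0.0177 over 7073 shared symbols, from the limma standard errors), where 6.07% of those symbols passed. It was lost without mouse edited sample 1 (limma-based adjusted p = 0.134), mouse control sample 1 (0.0661) or mouse control sample 2 (0.0930). Acvr2b, at -1.38 in mouse and -0.31 in cattle, missed the threshold (difference -1.07 ± 0.38, adjusted p = 0.0783, limma), as did Tgif1, at -0.58 and 0.16 (-0.74 ± 0.32, adjusted p = 0.165, limma) and Smad7, at -0.92 and -0.17 (-0.75 ± 0.43, adjusted p = 0.306, limma). Tdgf1 and Eng, called in mouse, were under the filter in cattle, so their difference comes only from fits without a filter, adjusted over 10715 shared symbols. There Tdgf1 had 1.35 in mouse and -0.44 in cattle (difference 1.79 ± 0.76, limma-based adjusted p = 0.204), and Eng had 1.61 and -0.19 (1.80 ± 0.69, limma-based adjusted p = 0.144). In those fits Bmp15 passed beside Furin, at 1.67 in mouse and -2.01 in cattle (3.67 ± 1.02, limma-based adjusted p = 0.0328), values that rest on the few reads given above and, with every edited bovine library at 0, depend on the pseudocount.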

How the data were processed

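Polyadenylated RNA was primed with oligo(dT) and sequenced after a Smart-seq2 procedure, per the labels' protocols. Trimmomatic, HISAT2, featureCounts and DESeq2, without versions, and the builds mm10 and ARS-UCD1.2 come from the submitters' processing notes. Each species has 1 deposited table of signal values, which are counts of reads scaled by the authors with a size factor for each sample, as the file headers and the values show. The deposited tables also hold the authors' log2 fold changes with standard errors, p-values and adjusted p-values, quoted only as the authors' table, and a test statistic, a score of the authors that was not used. The sources used here do not give the annotation, the strand setting or how multiply matching reads were counted.

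Genes whose mean reached 10 normalized reads (11386 in mouse, 8884 in cattle) were tested on log2(value + 1) with limma 3.58.1 in R 4.3.3, with a trend on mean expression, two-sided, edited minus control, within a table. This scale understates fold changes of low genes. Limma also draws the variance of each gene toward that of genes of similar level, with 26.6 total degrees of freedom in mouse and 19.3 in cattle. The SE and p of a mouse gene therefore rest mostly on other genes and less on its own 2 samples per group. Benjamini-Hochberg adjustment ran over all genes tested, with a threshold of 0.05, and limma gave the p-values unless another tool is named. Groups and replicate numbers came from sample titles. The difference between species was the mouse minus the bovine log2 fold change, with Satterthwaite degrees of freedom, adjusted over shared symbols. The members and gene lists were chosen with earlier results of these data known. All 40 members are given. Of the other pathway and marker lists up to 3 called genes with the largest absolute change per list are named, with others named after their values were seen, and markers mostly as sums. Mouse coordinates and exon lengths are from GENCODE M21 on GRCm38 (mm10), which matched 89.1% of mouse names and 35 of 35 members.

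Whole reads were recovered from the mouse values at a tolerance of 0.05 reads and tested with edgeR 4.0.16 and DESeq2 1.42.0. The other alternatives were a pseudocount of 0.5 or 5, no filter or a mean of at least 50, the same total per sample, robust limma, a replicate block, leaving out each sample, and, added after seeing the data, removal of each mouse sample's trend on exon length. The scripts were tested on simulated data. Limits in reads cover counting error only.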

Additional observations from a re-analysis of the deposited data

Results flagged for a closer look

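Of 67 groups of bovine member values, 2 had an end library far from the others, where chance flags about 1 in 20. TDGF1 reached 22.6 normalized reads in edited library 3, against at most 1.85 in the other edited libraries. SMURF2 was lowest in edited library 6, at 12.5, against 17.8 or more in the others. The change of Furin differed between mouse and cattle by 1.75 ± 0.46 on the log2 scale (mouse minus cattle, adjusted p = 0.0177 from the limma standard errors).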

How the results depend on the processing

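Leaving out 1 library moved the mouse gene count between 580 (without control sample 1, and 601 without control sample 2) and 2588 (without edited sample 2), and the count of called mouse members between 2 (without control sample 2) and 8 (without edited sample 2), with 3 without edited sample 1 or control sample 1. The other alternatives called 4 or 5 members. In cattle 0 members and 1 gene, the same gene each time, were called under every alternative run. The count of members that differed between species was 2 with no filter (Furin and Bmp15), 0 with a mean of at least 50, and 0 to 3 without 1 library (2 without bovine control library 6).

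Of the member fold changes under alternatives other than leaving out a library, 213 in mouse and 109 in cattle kept direction and call. At the same total the sign turned for mouse Bmpr2 (0.037) and Acvr2a (0.053) and for bovine BMPR1A (0.049), SMAD2 (0.058) and TGFBR1 (0.044), and Smad5 turned with edgeR (-0.029) and DESeq2 (-0.062). None of these genes passed in any setting. Without 1 library the sign also turned in mouse for Acvr1 (-0.64 to 0.27), Acvr2a (-0.16 to 0.017), Bmpr2 (-0.43 to 0.25), Skil (-0.66 to 0.29), Smad2 (-0.11 to 0.27), Smad3 (-0.0083 to 0.71), Smad4 (-0.63 to 0.034), Smad5 (-0.80 to 0.97) and Tgfbr2 (-0.18 to 0.54). In cattle it turned for ACVR1 (-0.016 to 0.27), ACVR2A (-0.14 to 0.22), BMPR1A (-0.22 to 0.11), SKIL (-0.15 to 0.24), SMAD2 (-0.19 to 0.021), SMURF1 (-0.094 to 0.38) and TGFBR1 (-0.19 to 0.056). The cause was not tested.

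The replicate block called 1816 mouse genes, 5 mouse members and 1 bovine gene. In mouse, same-numbered samples correlated at 0.11 and other-numbered ones at -0.11 (residuals across genes). With 2 samples per group these values mirror each other, so they say little about pairing. In cattle, same-numbered libraries correlated at -0.19 to 0.34, and 1 of 6 numbers correlated best with itself. The numbers were not taken to pair samples in either species. The edgeR and DESeq2 alternatives were not run for cattle. With 2 mouse samples per group, a fit without 1 sample assumes that the lone sample varies like the other group.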

Other observations

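Further regulators and targets of the pathway passed in mouse morulae. Ppm1a, a phosphatase reported to act on SMAD proteins, had 2011 and 2077 normalized reads in edited and 1124 and 1100.4 in control morulae (0.88 ± 0.16, limma adjusted p = 0.000640), and was called in 14 of 14 settings. Hgs, an endosomal adaptor, had 422 and 412 in edited and 230.2 and 274 in control morulae (0.73 ± 0.21, limma adjusted p = 0.0185), and was called in 12 of 14 settings, the exceptions being the fits that left out a control sample. Tgif2 (0.76), a relative of Tgif1, Ube2o (0.67) and Ncln (0.71) were also higher, and Strap (-0.54) and Cul3 (-0.57) lower, but each of these 5 calls was lost with no filter and without edited sample 1, control sample 1 or control sample 2. Of 14 settings, Tgif2 and Ube2o were called in 8, Ncln and Strap in 9 and Cul3 in 6.

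Of the targets, Cyr61 had 34.3 and 68.0 normalized reads in edited and 153 and 151 in control morulae (-1.63 ± 0.33, limma adjusted p = 0.00115), a gene also known as a target of YAP and TEAD. Ctgf (-1.17) and Gadd45b (-1.30) were lower too, but Ctgf was called in 8 and Gadd45b in 6 of 13 settings, and both calls were lost without edited sample 1, without control sample 1, without control sample 2 and with DESeq2. Myc was higher, with 174 and 189 in edited and 96.1 and 96.1 in control morulae (0.91 ± 0.26, limma adjusted p = 0.0178), a call lost only when control sample 1 or control sample 2 was left out. Bambi, a pseudoreceptor that dampens the pathway, had 129 and 98.5 in edited and 49.2 and 79.7 in control morulae and did not pass (0.84 ± 0.32, limma adjusted p = 0.0758). It passed at the same total (limma adjusted p = 0.0432) and without edited sample 2 (0.0241), within a range up to 0.531.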
